A study of Mus musculus with 4 samples.

Results

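The E2F transcription factors and their DP partners were followed in C2C12 cells, a mouse myoblast line, after knockdown of the chromatin protein gene Sfmbt1. The 10 genes were E2f1 to E2f8, Tfdp1 and Tfdp2, and every probe set that the array annotation assigns to exactly 1 of them was taken. That gave 21 of the 45101 probe sets on the array, and all 10 genes, of 18193 genes with a probe set of their own, were present. The knockdown cells carried the pLKO.1 lentiviral vector with an shRNA against Sfmbt1, and the control cells carried the same vector with a control hairpin. One label calls that hairpin shLuc and another a scramble sequence. Both groups were stably transduced, held under 2 ug/ml puromycin and grown in DMEM with 20% fetal bovine serum, and the labels name no differentiation medium. Each group had 2 independently grown cultures with 1 Affymetrix array each. The labels name 1 hairpin against Sfmbt1 and do not say whether each culture was transduced on its own. The p-values therefore refer to the spread between cultures, which was estimated largely from other genes.

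E2F proteins bind DNA as heterodimers with a DP protein, encoded by Tfdp1 or Tfdp2, and control genes needed for entry into S phase. E2F1, E2F2 and E2F3 are known mainly as activators, E2F4 and E2F5 as repressors that act with the pocket proteins RB, p107 and p130, and E2F6 as a pocket-protein-independent repressor found in Polycomb-related complexes. E2F7 and E2F8 are atypical repressors that bind DNA without a DP partner. In muscle cells, withdrawal from the cell cycle during differentiation is accompanied by pocket protein repression of E2F target genes.

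Median signal over the probe sets other than the controls was 92.8 and 101.1 on the knockdown arrays and 97.8 and 102.7 on the control arrays. Background was set per array at the signal that 95% of the 27 bacterial control probe sets do not exceed. It was 69.3 and 42.9 on the knockdown arrays and 49.1 and 53.2 on the control arrays, and knockdown replicate 1 had the lowest share of probe sets above it (56.2%, against 64.3% to 67.6% on the other arrays). Every one of the 5 Sfmbt1 probe sets had both knockdown arrays below both control arrays, a pattern found in 24.0% of all tested probe sets. Signals were at 14.4% to 69.2% of the control mean, and 1 of the 4 tested passed. The fifth, with the lowest percentage, lay in the background range on all arrays. All 6 myoblast markers examined were above background on every array. None was called, with 5 negative log2 differences and 1 positive one, from -0.97 for Pax7 to 0.21 for Des (median -0.25). The 12 differentiated muscle markers had summed signals of 10714 and 11146 on the knockdown arrays, against 2484 and 2308 on the control arrays. Of the 11 tested, 10 rose, against 1.44% of all genes tested. The part that this difference in muscle markers has in the results below was not tested. Lists of haematopoietic, endothelial, epithelial and adipocyte markers had summed signals between 247 and 1123 on all arrays, with no member called. The fibroblast list summed to 16429 and 17200 on the knockdown arrays and 13987 and 13659 on the control arrays, mostly from Col3a1. Of its 4 tested members 1 rose, against the same 1.44% of all genes. That gene was the collagen gene Col1a1, with 1222 and 1286 on the knockdown arrays and 277 and 349 on the control arrays (log2 difference 1.96, limma adjusted p = 9.00e-06). The part of these genes in the results was not tested either. In whole cultures, fewer cells of a type and less RNA per cell cannot be told apart.

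Of the E2F and DP genes, Tfdp1 fell, E2f3 rose in its brighter probe set with a less stable call, and E2f8 fell in 1 of its probe sets. Each gene was represented by its brightest probe set in a test over 12866 genes (the gene test), and each probe set was also tested on its own among 22893 probe sets (the probe set test), in both cases with limma and a Benjamini-Hochberg adjusted p under 0.05 as the threshold. Log2 differences are knockdown minus control on the scale log2(signal + 16). In the gene test 1 of the 10 genes was called lower, where the same test called 1.61% of all genes lower, and 1 was called higher, against 1.44% of all genes. Of the 21 probe sets, 19 passed the filter on dim signals, and in the probe set test 2 of the 19 were called lower (1.43% of all probe sets) and 0 higher (0.961% of all probe sets, with limma). At an unadjusted p under 0.05 the probe set test gave 7 of the 19 probe sets, against 15.5% of all probe sets. With 1 or 2 calls, these shares rest on single members. E2f3, the gene called higher, was not called in the probe set test (limma adjusted p = 0.0541) or with the mean of its probe sets (0.621).

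Most members had lower values on the knockdown arrays, called or not. In 7 of the 10 genes both knockdown arrays lay below both control arrays in the probe set tested, a pattern found in 21.5% of all genes tested, and in 1 gene they lay above (23.0% of all genes). Among the 19 tested probe sets the counts were 11 below (24.0% of all probe sets) and 3 above (21.6%). The median log2 difference was -0.30 over the 10 genes and 0.01 over all genes tested. With the mean of a gene's probe sets the median over the 10 genes was -0.16. The difference was negative in 8 of the 10 genes, against 47.8% of all genes, and in 7 to 9 of them under the alternatives. E2f4 changed sign when each array was centred on its median. Several probe sets share a gene, so the probe sets are not independent of each other.

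**Figure D1:**
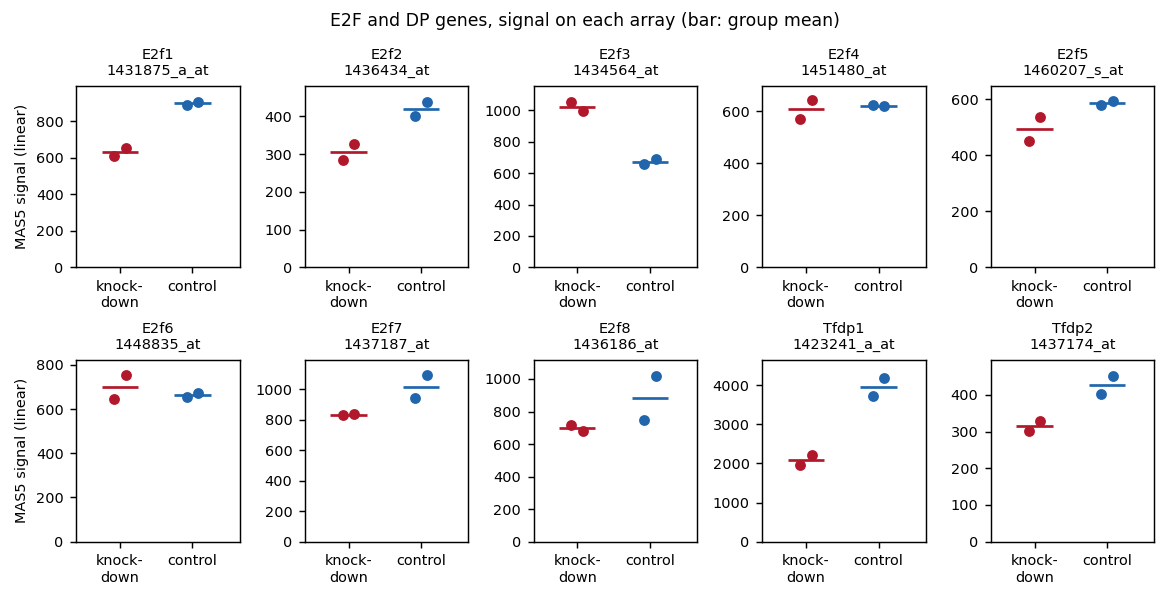
Linear MAS5 signal (y axis, from 0, its own scale in each panel) of the probe set used in the gene test for each of the 10 genes, on the 2 knockdown arrays and the 2 control arrays, with a bar at each group mean (n = 2 each). Tfdp1 is lower and E2f3 higher on both knockdown arrays, and the groups overlap in E2f4 and E2f6.

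Tfdp1 encodes DP1, a dimerisation partner of E2F1 to E2F6. It had signals of 1965 and 2225 on the knockdown arrays and 3731 and 4187 on the control arrays in its single probe set, 1423241_a_at. Both knockdown cultures stood far below both control cultures. Mean signal was 2095 ± 184 in the knockdown and 3959 ± 322 in the control (SD, n = 2 each), or 52.9% of the control (log2 difference -0.91, SE 0.13, limma adjusted p = 8.30e-04 over genes and 0.0042 over probe sets). The calls were lost in fits without the variance trend (adjusted p = 0.222 over genes and 0.236 over probe sets), and over probe sets also without the filter on dim signals (0.0519). The gene lies on chromosome 8 of GRCm38.p6, from 13338725 to 13378448. Its promoter is shown because it had the smallest p of the family in the gene test. The window covers 250 bases before to 50 bases after a RefSeq start on the plus strand (chr8:13338501-13338800), and capitals mark a match to the E2F motif described below, at positions -43 to -36 relative to the start.
Tfdp1: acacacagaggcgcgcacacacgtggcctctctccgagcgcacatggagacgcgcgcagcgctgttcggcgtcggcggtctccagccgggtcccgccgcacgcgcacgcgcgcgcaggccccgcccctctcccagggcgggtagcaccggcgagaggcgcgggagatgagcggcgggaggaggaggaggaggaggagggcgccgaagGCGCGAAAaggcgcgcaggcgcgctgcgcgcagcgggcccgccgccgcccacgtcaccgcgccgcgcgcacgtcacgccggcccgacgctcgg

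Tfdp2 encodes DP2, the other DP subunit, and is measured by 4 probe sets. The brightest, 1437174_at, had signals of 302 and 328 on the knockdown arrays and 402 and 451 on the control arrays. Probe set 1435344_at had 235 and 182 on the knockdown arrays and 279 and 285 on the control arrays, and 1443962_at had 151 and 104 against 198 and 179. In these 3 probe sets the knockdown arrays were all below the control arrays, at 73.9%, 73.9% and 67.8% of the control mean. None of them passed, with log2 differences of -0.42, -0.42 and -0.53 and limma adjusted p-values of 0.285, 0.382 and 0.389 over probe sets. For the gene the 95% interval of the log2 difference ran from -0.80 to -0.03. The fourth probe set, 1445873_at, did not pass the filter. Its signals were 7.1 and 16.9 on the knockdown arrays, within background, and 91.0 and 92.0 on the control arrays, so that it was at least 1.52-fold lower in the knockdown with background in place of the dim signals, a value with no test.

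Among the activator genes, E2f3 was the one called. E2f3 probe set 1434564_at had signals of 1051 and 994 on the knockdown arrays and 658 and 689 on the control arrays, so that the groups were well apart. Mean signal was 1022 ± 39.95 in the knockdown and 673 ± 22.3 in the control (SD, n = 2 each), which is 1.52-fold higher (log2 difference 0.59, SE 0.15). E2f3 passed in the gene test (limma adjusted p = 0.0391) and missed the threshold in the probe set test (adjusted p = 0.0541). Its call in the gene test was lost when control replicate 1 (adjusted p = 0.194), control replicate 2 (0.0982) or knockdown replicate 1 (0.0628) was left out. It was also lost without the filter (0.119) and without the variance trend (0.297). In the second E2f3 probe set, 1427462_at, the groups overlapped, with 245 and 205 on the knockdown arrays and 222 and 305 on the control arrays (log2 difference -0.20, adjusted p = 0.731). When the probe sets of a gene were averaged, E2f3 had a log2 difference of 0.19 and an adjusted p of 0.621.

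E2f3 is transcribed from more than 1 start, and the files do not say which transcripts each probe set reads. The gene lies on chromosome 13 of GRCm38.p6, from 29906575 to 29986064, on the minus strand. RefSeq windows at both starts are shown because the log2 differences of its probe sets had opposite signs. The test of unequal change described below did not call that pair (limma adjusted p = 0.305). The outer window is at chr13:29986014-29986313 and the inner one at chr13:29984342-29984641. In the outer window capitals mark a match to the cell cycle homology region motif, at positions -23 to -18, and 1 to the E2F motif, at positions -11 to -4. The inner window holds neither.
E2f3 outer start: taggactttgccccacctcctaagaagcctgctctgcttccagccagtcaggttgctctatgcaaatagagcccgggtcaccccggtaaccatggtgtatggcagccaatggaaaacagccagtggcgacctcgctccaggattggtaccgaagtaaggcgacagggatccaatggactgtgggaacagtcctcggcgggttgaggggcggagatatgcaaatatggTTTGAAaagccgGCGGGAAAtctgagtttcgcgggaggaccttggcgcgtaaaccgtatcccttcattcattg
E2f3 inner start: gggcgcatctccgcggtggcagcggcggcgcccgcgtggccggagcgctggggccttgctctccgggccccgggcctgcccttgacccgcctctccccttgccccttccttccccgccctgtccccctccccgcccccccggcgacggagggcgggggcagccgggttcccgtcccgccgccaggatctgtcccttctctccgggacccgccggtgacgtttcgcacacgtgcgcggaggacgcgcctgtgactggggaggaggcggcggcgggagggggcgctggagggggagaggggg

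E2f1, the founding member of the family, gave opposite directions in its tested probe sets. In the brighter, 1431875_a_at, signals were 608 and 652 on the knockdown arrays and 891 and 906 on the control arrays. This is 70.1% of the control, with no overlap of the groups (log2 difference -0.50, SE 0.15, 95% interval -0.82 to -0.18, limma adjusted p = 0.0906 over genes). It passed with quantile normalization (adjusted p = 0.0456) and with the upper 40% of probe sets kept (0.0417), whereas the mean over the gene's probe sets had a log2 difference of -0.04 (0.928). In the dimmer, 1417878_at, signals were 255 and 312 on the knockdown arrays and 217 and 198 on the control arrays, again without overlap but higher in the knockdown (log2 difference 0.42, adjusted p = 0.378 over probe sets). The third, 1447840_x_at, lay in the background range on all 4 arrays and was not tested.

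E2f2, the remaining activator, had signals of 286 and 326 on the knockdown arrays and 401 and 438 on the control arrays in 1436434_at. The second probe set, 1455790_at, had 286 and 310 on the knockdown arrays and 337 and 329 on the control arrays. Both probe sets were lower on the knockdown arrays without overlap, at 73.0% and 89.4% of the control, and neither passed (log2 differences -0.44 and -0.15, limma adjusted p = 0.268 and 0.753 over probe sets). The gene's 95% interval ran from -0.83 to -0.04.

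The repressors that work with pocket proteins, E2f4 and E2f5, did not pass. E2f4 had signals of 571 and 643 on the knockdown arrays and 622 and 620 on the control arrays, so the knockdown values bracketed the control values (log2 difference -0.03, 95% interval -0.37 to 0.30, limma adjusted p = 0.952). For E2f5, 1460207_s_at had 451 and 537 on the knockdown arrays and 579 and 593 on the control arrays (log2 difference -0.24, adjusted p = 0.545). Its suffix marks probes shared between transcripts. In 1417444_at the groups overlapped, with 370 and 354 on the knockdown arrays and 403 and 312 on the control arrays. Probe set 1447625_at had 672 and 296 on the knockdown arrays and 289 and 258 on the control arrays, so its positive log2 difference of 0.68 (adjusted p = 0.300) rested on knockdown replicate 1. Without that array the difference was 0.11, and without knockdown replicate 2 it was 1.25 (adjusted p = 8.30e-06).

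E2f6, whose protein recruits Polycomb-related repressors, had 646 and 756 on the knockdown arrays and 656 and 674 on the control arrays in 1448835_at. The groups overlapped and the log2 difference was 0.07 (95% interval -0.26 to 0.40, limma adjusted p = 0.897). The dimmer probe set 1437914_at ranged from 45.9 to 138.9 on the knockdown arrays and from 19.7 to 73.1 on the control arrays, with 1 array of each group in the background range. The interval for E2f6 excludes a 2-fold change on the fitted scale in the brighter probe set, and that for the dimmer one, -0.51 to 2.11, does not.

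The atypical repressor gene E2f7 had 829 and 834 on the knockdown arrays and 944 and 1090 on the control arrays. Both knockdown values were below both control values, at 81.7% of the control, and E2f7 did not pass (log2 difference -0.28, 95% interval -0.59 to 0.03, limma adjusted p = 0.394). E2f8, which encodes the other atypical repressor, had its largest difference in probe set 1444319_at, with signals of 71.7 and 107 on the knockdown arrays and 420 and 325 on the control arrays. Mean signal was 89.6 ± 25.2 in the knockdown and 372 ± 66.6 in the control (SD, n = 2 each), so the knockdown stood at 24.0% of the control (log2 difference -1.89, SE 0.26, limma adjusted p = 0.0042 over probe sets). This call was lost without the filter (adjusted p = 0.0794) and without the variance trend (0.172). The lower knockdown value is only just above that array's background of 69.3. In the brighter probe set 1436186_at the signals were 719 and 682 on the knockdown arrays and 748 and 1017 on the control arrays. There the knockdown values were also the lower ones, at 79.3% of the control, without a call (log2 difference -0.31, adjusted p = 0.412 over genes). The difference rested on the control arrays: it was -0.09 without control replicate 2 and -0.53 without control replicate 1. The gene test used that brighter probe set. With the mean of both probe sets in its place, E2f8 fell by 1.10 log2 units (adjusted p = 0.0072).

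The E2f8 gene lies on chromosome 7 of GRCm38.p6, from 48866429 to 48882073, on the minus strand. The window at a RefSeq start of the gene (chr7:48881547-48881846) is shown for the size of the difference in the dimmer probe set. This start lies inside the gene, short of its outer end. Capitals mark a match to the cell cycle homology region motif on the opposite strand, at positions -20 to -15.
E2f8: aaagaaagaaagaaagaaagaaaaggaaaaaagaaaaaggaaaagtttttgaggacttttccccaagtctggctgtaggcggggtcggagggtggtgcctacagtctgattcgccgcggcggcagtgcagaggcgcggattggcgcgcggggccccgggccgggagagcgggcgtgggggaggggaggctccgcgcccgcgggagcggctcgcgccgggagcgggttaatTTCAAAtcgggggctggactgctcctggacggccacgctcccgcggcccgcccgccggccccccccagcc

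**Figure D2:**
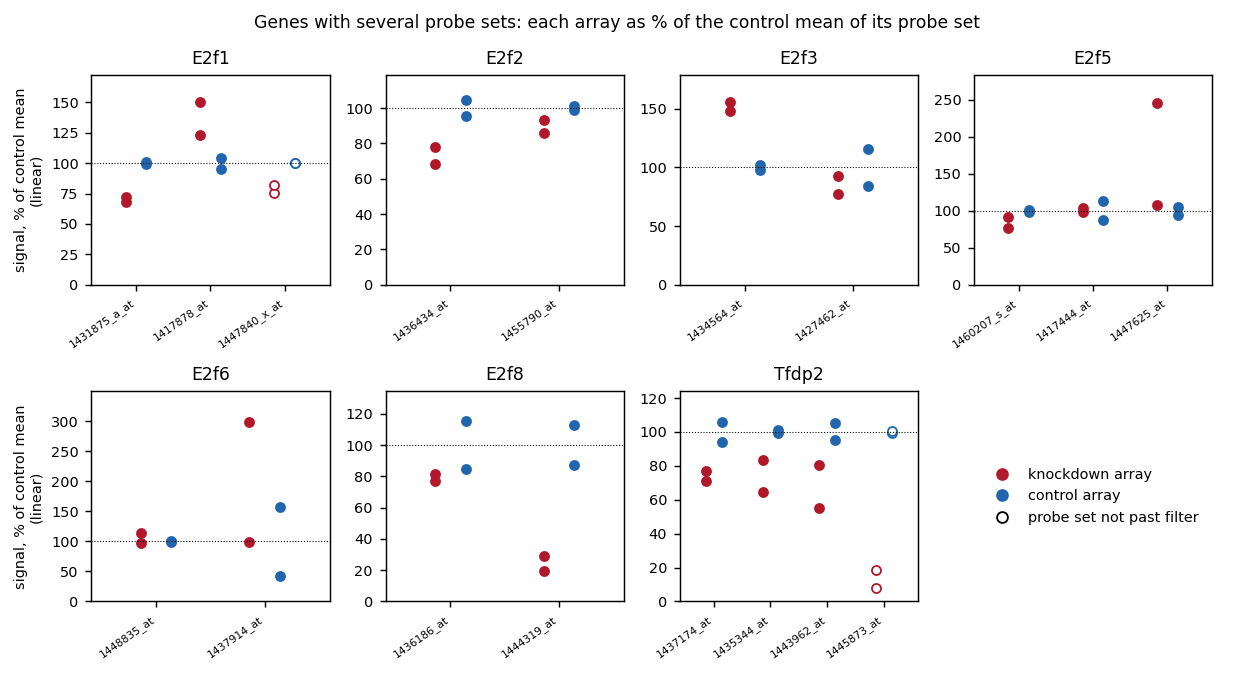
Signal on each array as a percentage of the control mean of the same probe set (y axis, linear) for the 7 genes with several probe sets, with knockdown arrays left of control arrays and open points for probe sets that did not pass the filter. Knockdown arrays are lower in all 4 Tfdp2 probe sets and both E2f8 probe sets, and lie on opposite sides of the control in the tested E2f1 probe sets.

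E2F genes are themselves known targets of E2F proteins, and the windows were searched on both strands for the E2F motif, taken as TTTCCCGC, TTTCGCGC, TTTGCCGC or TTTGGCGC, and for the cell cycle homology region motif, TTTGAA, which is bound by the MuvB complex. RefSeq windows of 300 bases were given for 8 of the genes, 12 windows in all. E2f4 and E2f5 had none. The windows of E2f1, E2f8 and Tfdp2 lie wholly inside the gene, so the sequence at the outer 5' end of these genes was not searched. The E2F motif was matched in 5 of these windows, those of E2f2, E2f3 and E2f7 and both overlapping windows of Tfdp1, and in 2.26% of all 32851 windows. The cell cycle homology region motif was matched in 3, those of E2f2 at its inner start, E2f3 and E2f8, and in 17.9% of all windows. No match to one motif overlapped a match to the other in the 12 windows. Of the genes with a match to the E2F motif, Tfdp1 was called lower and E2f3 higher in the gene test. E2f2 and E2f7 also had a match and were not called. E2f8, whose dimmer probe set was called lower in the probe set test, had no match to that motif in its window. A match describes the letters of the window only.

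Whether the probe sets of a gene changed unequally was tested by the log2 difference between 2 probe sets of the same gene on each array, with limma over 16850 such pairs, a test added after the values were seen. In E2f8 the brighter minus the dimmer probe set was 3.07 and 2.50 on the knockdown arrays and 0.81 and 1.60 on the control arrays, a difference of 1.58 (SE 0.34, limma adjusted p = 0.244). In E2f1 it was 1.20 and 1.03 on the knockdown arrays and 1.96 and 2.11 on the control arrays, a difference of -0.92 (adjusted p = 0.255). In E2f3 it was 2.03 and 2.20 on the knockdown arrays and 1.50 and 1.14 on the control arrays (difference 0.80, adjusted p = 0.305). The differences of the knockdown arrays did not overlap those of the control arrays in 6 of the 11 pairs of the E2F and DP genes, these 3 included, against 43.4% of all pairs. Limma called 0 of the 11 pairs and 0 of all pairs (0%) at the adjusted threshold, with 3 of the 11 and 1985 of all pairs (11.8%) at an unadjusted p under 0.05, and without the variance trend it also called 0.

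**Figure D3:**
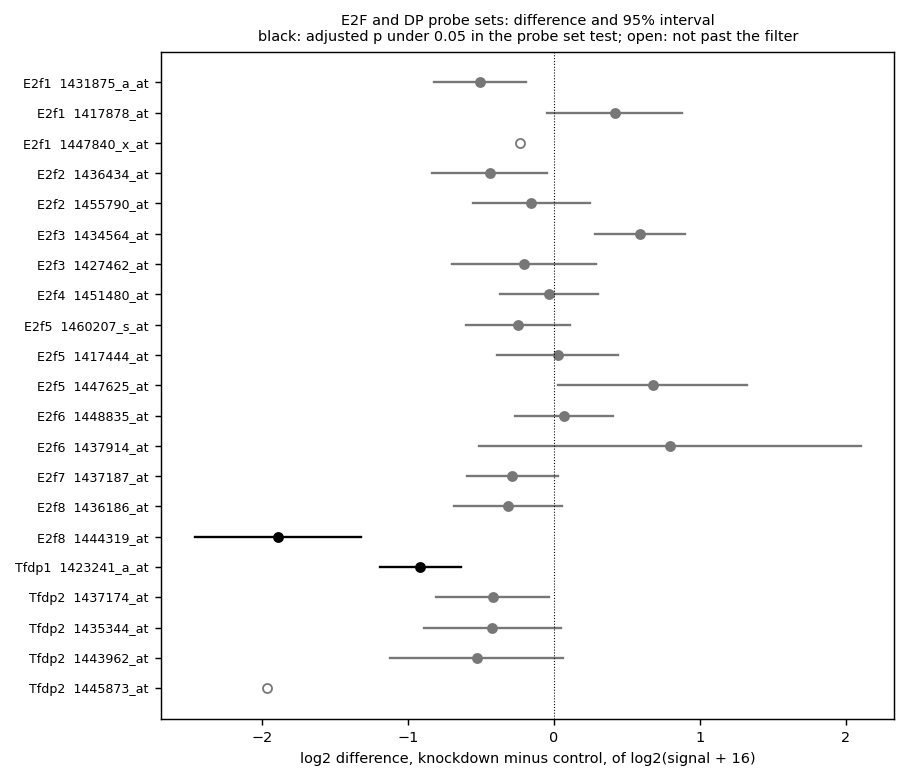
Log2 difference, knockdown minus control, of log2(signal + 16) for the 21 probe sets (x axis), with 95% intervals from the probe set test and n = 2 arrays per group. The 2 black points, E2f8 1444319_at at -1.89 and Tfdp1 at -0.91, passed the probe set test, and open points were not tested.

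Over the 4 arrays, the genes with the smallest Euclidean distance of mean-centred log2 signals to Tfdp1 were Khsrp, Bcorl1 and Rhoq, at distances of 0.02 to 0.05. Khsrp, which encodes an RNA-binding protein, had 1311 and 1461 on the knockdown arrays and 2469 and 2813 on the control arrays. For E2f3 they were Pxdn, Cpne3 and Tspan6, at 0.02 to 0.05, with Pxdn at 1583 and 1507 on the knockdown arrays and 992 and 1059 on the control arrays.

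Genes for the partners and regulators of E2F proteins were counted in the gene test. The pocket protein and MuvB list (10 tested) had 0 genes called in limma, and 1 at an unadjusted p under 0.05 (15.0% of all genes), with a median log2 difference of -0.09 against 0.01 over all genes. In that list Rbl2, which encodes p130, the pocket protein of quiescent cells, had 580 and 600 on the knockdown arrays and 758 and 805 on the control arrays (log2 difference -0.40, limma adjusted p = 0.216). Rb1, the retinoblastoma gene, had 510 and 580 against 706 and 663 (log2 difference -0.32, adjusted p = 0.363). Both were lower on both knockdown arrays without passing, a pattern without overlap that 21.5% of all genes showed. Of 11 tested genes for partners of E2F6, 1 fell (1.61% of all genes did) and 0 rose (1.44% of all genes did), and the median was 0.02. The gene that fell was Max, which encodes the dimerisation partner of MYC and MGA, with 330 and 389 on the knockdown arrays and 688 and 744 on the control arrays (log2 difference -0.97, SE 0.17, adjusted p = 0.0046). Mga, whose protein pairs with MAX in the E2F6 complex, had a log2 difference of -0.50 (adjusted p = 0.283), and the Polycomb gene Ring1 one of -0.36 (adjusted p = 0.339).

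Upstream of the pocket proteins, 1 of 17 tested genes for G1 cyclins, their kinases and inhibitors rose and 2 fell, with a median of -0.12. Over all genes, 1.44% rose and 1.61% fell. Cdkn2d, which encodes the CDK4 and CDK6 inhibitor p19, had 649 and 795 on the knockdown arrays and 1369 and 1530 on the control arrays (log2 difference -0.99, SE 0.15, limma adjusted p = 0.0016). Ccne1, the gene for cyclin E1 and a known E2F target, had 899 and 1046 on the knockdown arrays and 1376 and 1911 on the control arrays (log2 difference -0.73, adjusted p = 0.0218), and lost its call when control replicate 2 was left out (adjusted p = 0.230), with shared probe sets removed (0.110) and with the mean of its probe sets (0.0844). Cdkn1a, which encodes the inhibitor p21, was the gene that rose, with 2666 and 2890 on the knockdown arrays and 1924 and 1829 on the control arrays (log2 difference 0.56, adjusted p = 0.0224). Leaving out either control array ended the Cdkn1a call (adjusted p = 0.0622 without replicate 1 and 0.124 without replicate 2), and with the mean of its probe sets the log2 difference was 0.90 and passed (0.0231). The list thus held 1 inhibitor gene that rose and 1 that fell. The next by p were the cyclin A2 gene Ccna2 (log2 difference -0.41, adjusted p = 0.0777) and the kinase gene Cdk6 (log2 difference -0.42, adjusted p = 0.104).

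Of 47 tested replication and nucleotide synthesis genes, many of them known E2F targets, 1 rose (1.44% of all genes did) and 0 fell (1.61%). Among the 47, 30 had a negative difference (47.8% of all genes did) and the median was -0.07. The gene that rose was Pola1, the catalytic subunit of DNA polymerase alpha, with 580 and 691 on the knockdown arrays and 286 and 357 on the control arrays (log2 difference 0.95, SE 0.18, limma adjusted p = 0.0091). Slbp, which encodes the histone mRNA stem-loop binding protein, had a log2 difference of -0.51 (adjusted p = 0.0556), and the replication factor C gene Rfc3 one of -0.44 (adjusted p = 0.131). Of 25 tested mitosis genes, 2 fell (1.61% of all genes did) and 0 rose (1.44%). Among the 25, 24 had a negative difference, against the same 47.8% of all genes, and the median was -0.15. Ncapg, a condensin subunit gene, had 606 and 667 on the knockdown arrays and 1393 and 1111 on the control arrays (log2 difference -0.95, SE 0.16, adjusted p = 0.0029). The mitotic kinesin gene Kif11 had 753 and 698 on the knockdown arrays and 1240 and 1169 on the control arrays (log2 difference -0.72, adjusted p = 0.0122). Without control replicate 2 the log2 difference was -0.76. Without control replicate 1 another Kif11 probe set was the brightest and was tested in its place (log2 difference -0.57). That value therefore does not describe the signals given here. With the mean of a gene's probe sets, neither Ncapg (adjusted p = 0.0712) nor Kif11 (0.0750) passed. The next by p, Ccnb2 and Prc1, had log2 differences of -0.33 and -0.32 (adjusted p = 0.266 and 0.302).

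Of 5 tested genes for apoptosis targets of E2F1, limma called 0, where it called 1.44% of all genes higher and 1.61% lower. At an unadjusted p under 0.05 there was 1 of the 5, against 15.0% of all genes, and the median was -0.03. Pmaip1, which encodes the BH3-only protein NOXA, had a log2 difference of -0.63 (adjusted p = 0.274), and the p53 family gene Trp73 one of 0.54 (adjusted p = 0.613). Without the filter, Cdkn2d passed (adjusted p = 0.0473) and Max, Ccne1, Cdkn1a, Pola1, Ncapg and Kif11 did not (0.0646 to 0.160), and without the variance trend none of these 7 passed (0.209 to 0.335). In comparison with these lists, the median of the E2F and DP genes themselves was -0.30, a difference between lists that was not tested.

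**Figure D4:**
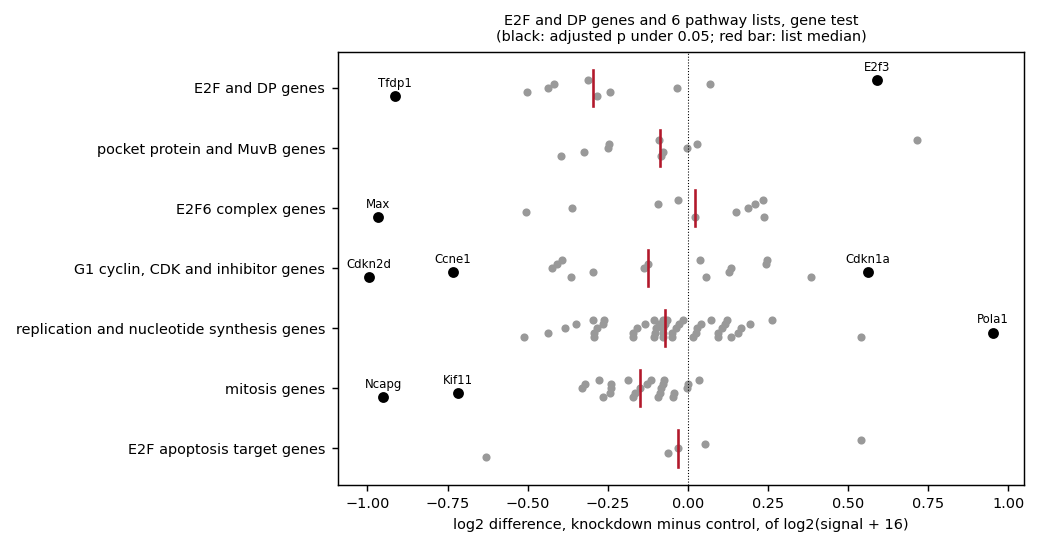
Log2 difference, knockdown minus control, of log2(signal + 16) in the gene test (x axis) for each tested gene of the E2F and DP family and of 6 pathway lists, with black named points for genes that passed and a red bar at each list's median. Medians run from -0.30 for the E2F and DP genes to 0.02 for the E2F6 partners.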

How the data were processed

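Total RNA from 4 cultures of C2C12 myoblasts was hybridised as biotin-labelled cRNA to 1 Affymetrix array each, from 100 ng RNA. What the authors deposited is 1 intensity per probe set and array on a linear scale. The submitters' processing notes name MAS5 and GCOS. Versions and the scaling between arrays are not given in the sources used here. Probe sets were named through the platform annotation, updated by gene identifier to RefSeq symbols of GRCm38.p6 (34741 of 34945 probe sets with 1 gene matched). All fits used log2(signal + 16), a scale that understates fold changes of dim genes. The 60% of probe sets with the highest mean log2 signal (above 57.3) were kept. Testing used lmFit and eBayes, with a variance trend, of limma 3.58.1 in R 4.3.3 across all genes, each by its brightest probe set, and across all probe sets, with Benjamini-Hochberg adjustment. The residual degrees of freedom were 2, against 13.8 prior degrees of freedom that the gene test drew from the spread of all genes. A two-sided exact permutation test of 2 against 2 arrays cannot give a p under 0.333. The number of arrays limits the precision. The steps were tested on simulated data, where 5.93% of the calls of the gene test were false. The gene test recovered 7.15% of simulated log2 changes of 0.5, 52.6% of those of 1 and 83.2% of those of 2. The simulated noise was normal and independent, with a spread that followed signal level and the prior degrees of freedom of the fit. The simulation therefore does not test these assumptions, and its rates hold only under them. A gene that was not called may therefore still differ.

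The genes and lists were chosen with earlier results of these data known, so no list is independent evidence. All 10 members are named. Of each pathway list, the called genes (at most 8) and the 2 others with the smallest p are named, and for each called member the 3 nearest genes by pattern. Alternatives covered the pseudocount, the filter, the normalization, the variance trend, the replicate number, each array left out, the mean of a gene's probe sets and shared probe sets. Promoter windows are from RefSeq (GRCm38.p6). Some genes on the lists are not reported here, and Cdkn2a, Cdkn2b and Bard1 did not pass the filter.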

Additional observations from a re-analysis of the deposited data

How the results depend on the processing

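Tfdp1 kept its direction under all 14 alternatives and was called in 13 of them in the gene test, the exception being the fit without the variance trend (adjusted p = 0.222). In the probe set test Tfdp1 and E2f8 1444319_at were called in 11 of 13 alternatives, and not without the filter on dim probe sets (adjusted p = 0.0519 and 0.0794) or without the variance trend (0.236 and 0.172).

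E2f3 lost its call in the gene test without the filter (limma adjusted p = 0.119), without the variance trend (0.297) and with the mean of its probe sets (0.621). The gene test called 2 members and the probe set test 2. Without the filter they called 1 and 0, with 23 genes higher and 32 lower overall in place of 185 and 207. Without the variance trend limma called 0 and 0 members and 0 genes in either direction, with 5 and 6 members and 1501 genes at an unadjusted p under 0.05. With the upper 40% of probe sets kept 284 genes were higher and 321 lower, with each array centred on its median 329 were higher (60.4% of calls, against 47.2%), and with the mean of a gene's probe sets 97 were higher and 120 lower. Leaving out 1 array at a time gave 1 to 2 member genes, 2 to 4 member probe sets, 140 to 405 genes higher and 123 to 468 lower. Without knockdown replicate 1 there were 405 higher, without knockdown replicate 2 468 lower and without control replicate 2 123 lower. When an array was left out, the lone array of its group was assumed to vary like the other group.

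The median log2 difference over the 10 genes was -0.44 to -0.20 with 1 array left out at a time, and -0.16 with the mean of a gene's probe sets. Differences that changed sign were all uncalled. With median centring E2f4 was 0.0073, and E2f5 was 0.15 with the mean of its probe sets and 0.028 without the shared probe set. Leaving out 1 array at a time gave -0.12 to 0.049 for E2f4, -0.041 to 0.18 for E2f6, -0.15 to 0.21 for E2f5 1417444_at and -0.42 to 0.0099 for E2f3 1427462_at. The cause was not tested.

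The replicate numbers were shared between groups, but deviations of same-numbered arrays correlated at r = 0.01 across genes over 2 pairs, and the labels do not pair the cultures. With the replicate block 2 member genes and 3 member probe sets were called, E2f3 1434564_at being added (adjusted p = 0.0342), and 276 genes were higher and 270 lower.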
